A study of Mus musculus with 27 samples.

Results

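The comparison described here set 5 homozygous (HM; Shank2-/-) against 5 heterozygous (HT; Shank2+/-) Shank2-mutant mice at 3 weeks of age (W3), the 10 mice labelled with these genotypes and this age among the 27 mice of the series. It asks what losing the second copy of Shank2 adds in the juvenile prefrontal cortex (PFC) once 1 copy is lost. All mice were males on a C57BL/6 background, and each library came from the dissected PFC of a single mouse. The paper's name for the mutant line also lists a strain other than C57BL/6. The mutant allele, a germline deletion of Shank2 exons 6 and 7, was present in every cell of the body of both groups. The 5 W3-WT mice served for the spread between mice and as a reference level, and 4 HM and 4 HT mice of 12 weeks (W12) gave the same comparison in other animals. Of 18757 genes in the table, 17065 had a mean normalized abundance of at least 10 over the 10 mice and were compared, 14676 of them protein-coding.

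Shank2 encodes a scaffold of the postsynaptic density (PSD), the protein mesh under excitatory synapses. Its PDZ domain binds the DLGAP proteins, which link it through PSD-95 to NMDA receptors, and its proline-rich region binds Homer, which is tied to group I metabotropic glutamate receptors. Shank1 and Shank3 are its paralogs, and variants in all 3 genes have been linked to autism spectrum disorder (ASD).

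The exons numbered 6 and 7 in the 16-exon transcript Shank2-202 lie on GRCm38 chromosome 7, plus strand, at 144285055 to 144285137 and at 144286642 to 144286766. They hold 83 and 125 coding bases, and their sum of 208 is not a multiple of 3. These bases are shown because they encode part of the PDZ domain and because the 2 groups differ by how many copies of the allele carry the deletion. They are printed in capitals between the last 20 bases of exon 5 and the first 20 of exon 8, read from the GENCODE M21 transcript.
Shank2-202 exons 6 and 7: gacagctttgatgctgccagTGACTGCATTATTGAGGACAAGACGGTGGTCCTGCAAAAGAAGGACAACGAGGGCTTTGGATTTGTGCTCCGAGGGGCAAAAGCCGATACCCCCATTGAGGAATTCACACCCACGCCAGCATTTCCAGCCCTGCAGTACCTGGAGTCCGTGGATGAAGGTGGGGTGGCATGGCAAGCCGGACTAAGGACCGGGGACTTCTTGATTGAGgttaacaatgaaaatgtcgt
In the longer transcripts Shank2-203 and Shank2-206 the same bases are exons 15 and 16, and the exons numbered 6 and 7 lie elsewhere. The sources used here do not say to which transcript the numbering of the deleted exons refers.

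Shank2 fell from the W3-HT to the W3-HM mice. The normalized abundance was 6095, 6889, 6433, 6683 and 7061 in the 5 W3-HT mice and 3567, 3869, 3502, 3663 and 4838 in the 5 W3-HM mice. The groups did not overlap, and the highest W3-HM mouse, replicate 5, stood apart from the other 4. The W3-HT mean was 6632 ± 381 and the W3-HM mean 3888 ± 549 (SD, n = 5 each), 58.6% of the W3-HT level. The log2 difference was -0.78 with a standard error (SE) of 0.08 (limma, Benjamini-Hochberg adjusted p = 0.000302), and the two-sided exact permutation test of 5 against 5 gave p = 0.00794, the smallest it can give. The W3-WT mean was 9380 ± 892 (SD, n = 5), so the step from WT to HT was 2748 and the step from HT to HM 2744 in normalized abundance. The table gives 1 value per gene, so reads from exons outside the deletion are part of it.

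Neither paralog passed the threshold. Shank1 ranged from 23608 to 27788 in W3-HT and from 23637 to 30226 in W3-HM (log2 difference 0.02, SE 0.06, limma adjusted p = 0.93), with an estimate of -0.02 under sample weights. Shank3 ranged from 9568 to 11205 and from 10172 to 12604 (log2 difference 0.07, SE 0.07, limma adjusted p = 0.776). The 95% intervals of their log2 differences were -0.10 to 0.14 and -0.08 to 0.21.

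**Figure D1:**
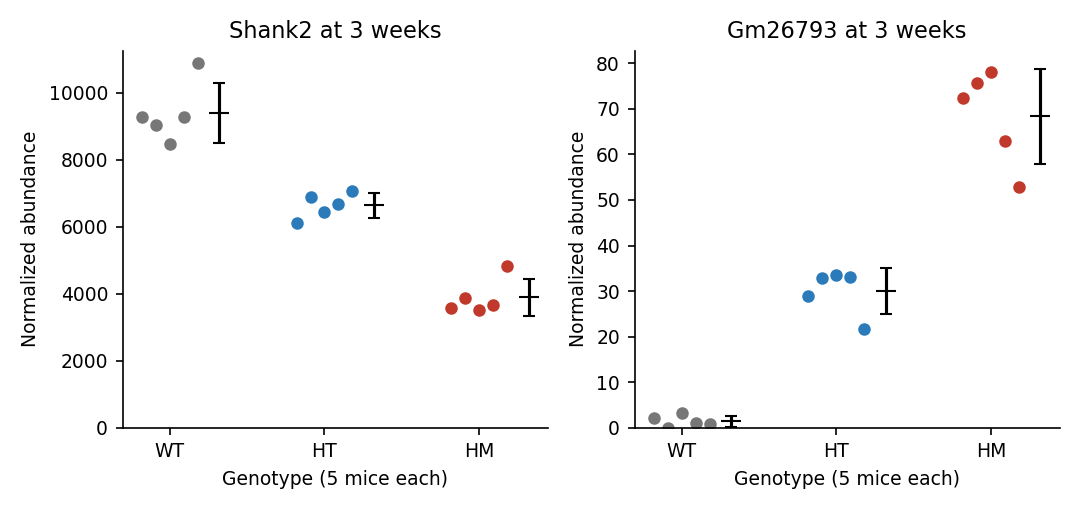
Normalized abundance of Shank2 (left) and of the non-coding gene Gm26793 (right) at 3 weeks in WT, HT and HM mice; each point is 1 mouse, and the bar beside each group gives its mean ± SD (n = 5). HM mice are below every HT mouse for Shank2 (means 3888 and 6632) and above every HT mouse for Gm26793 (52.8 to 78.1 against 21.6 to 33.6).

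On chromosome 7, the non-coding gene Gm26793 was nearly absent from WT mice and present in both mutant groups. It lies on the minus strand at 144894560 to 144897461, 470066 bases beyond the end of Shank2, and is annotated as antisense. Its values were 29.0, 32.9, 33.6, 33.1 and 21.6 in W3-HT and 72.4, 75.6, 78.1, 63.0 and 52.8 in W3-HM, while no W3-WT mouse was above 3.15. The groups did not overlap, and the W3-HM mean was 2.28 times that of W3-HT. The log2 difference was 1.16 (SE 0.31) and did not pass the threshold over all genes (limma adjusted p = 0.247; exact permutation p = 0.00794). With an offset of 10 in place of 1 before taking logs, or with only HT and HM mice fitted, it did pass (limma adjusted p = 0.0174 and 0.0266). Whether the counting used strand is not given in the sources used here. Its reads therefore cannot be told apart from those of a gene on the other strand. Whether its level follows the loss of Shank2 or other sequence carried along with the allele was not tested.

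Genes closer to Shank2 differed less. Upstream, the 3 nearest tested genes were Dhcr7, the last enzyme of cholesterol synthesis (log2 difference 0.07), Nadsyn1, which makes NAD (-0.10), and the receptor gene Mrgpre (0.10). Downstream, they were Cttn, the actin regulator cortactin that also binds Shank proteins (0.08), Ppfia1, a liprin of presynaptic and focal adhesion sites (-0.05), and Fadd, an adaptor of death receptors (0.10). None of the 6 reached an unadjusted p of 0.05. Of the 99 tested genes within 5 Mb of Shank2, 6 were higher and 4 lower at that level, 6.06% and 4.04% where all tested genes gave 4.73% and 5.75%, and none passed the threshold. The 4 with the smallest p were Kndc1 (log2 difference -0.33), a guanine nucleotide exchange factor that restrains dendrite growth, the triglyceride lipase gene Pnpla2 (-0.39), Gm26793 and Lrrc27 (0.45).

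Across all genes, 2 of 17065 passed an adjusted p under 0.05 (0.0117%), both lower in W3-HM: Shank2 and Ppm1l. No gene passed with a higher level. At an unadjusted p under 0.05 there were 1788 genes (10.5%), 807 higher (4.73%) and 981 lower (5.75%). In 326 genes (1.91%) the 5 W3-HM mice did not overlap with the 5 W3-HT mice, 163 in each direction (0.955%). The estimate was below 0 for 48.8% of genes and above 0 for 51.2%, the median log2 difference was 0.00 and the quartiles lay at -0.08 and 0.08. The count of 2 rests on the choice of mice and model: it was 9 with only HT and HM mice fitted, 31 with sample weights and 23 without W3-WT replicate 5, and Shank2 and Ppm1l were in each of these 3 sets. It was 7 without W3-HM replicate 5, 5 without W3-HM replicate 1, and 1 without any of W3-WT replicates 1 and 2, W3-HT replicates 2 to 5 or W3-HM replicates 2 and 3.

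Ppm1l, a protein phosphatase of the endoplasmic reticulum membrane that dampens stress kinase signalling, was the second gene that fell. The values were 5759, 5971, 6094, 5985 and 5592 in W3-HT and 5097, 4873, 4933, 4677 and 4919 in W3-HM. Every W3-HM mouse was below every W3-HT mouse, and the W3-WT mean of 5507 ± 303 (SD, n = 5) lay between the group means of 5880 ± 202 and 4900 ± 150. The log2 difference was -0.26 (SE 0.04, limma adjusted p = 0.049). The call is at the edge of the threshold: when single mice were omitted the adjusted p was under 0.05 for 5 of 15 omissions and at most 0.258, while the log2 difference stayed between -0.28 and -0.25. It was also over 0.05 with no filter on the mean (0.0538), after quantile normalization (0.104) and with the striatal covariate described further on (0.223).

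Of the 12 genes with the smallest p among those lower in W3-HM, all 12 separated the groups without overlap. Over all genes 0.955% were lower without overlap. The 12 were picked by p in this same comparison, so their separation largely follows from that choice and is no further evidence. Their log2 differences ranged from -0.20 to -0.78. After Shank2 and Ppm1l came Klhdc7a, a kelch-repeat gene of unknown role in cortex. It measured 549, 659, 604, 515 and 567 in W3-HT and 422, 362, 356, 371 and 407 in W3-HM, a ratio of means of 0.663 (limma adjusted p = 0.0849). Krt80, a type II keratin gene, measured 204, 202, 218, 186 and 221 against 139, 111, 125, 135 and 122, a ratio of 0.613 at the same adjusted p of 0.0849. The W3-WT means of these 2 genes, 584 and 217, were above both mutant means.

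Several of the other lower genes act at the neuronal surface. Cntnap1 encodes Caspr, which joins the axon to the myelin loops beside the node of Ranvier. Its values were 8801, 9171, 9124, 9094 and 9371 in W3-HT and 8220, 7408, 7223, 7674 and 7395 in W3-HM, with a log2 difference of -0.27 (SE 0.05, limma adjusted p = 0.0849). Lynx1, a membrane-anchored brake on nicotinic acetylcholine receptors, had group means of 13895 ± 596 and 11963 ± 409 (SD, n = 5 each), a ratio of 0.861. Kcng4, a modifier subunit of Kv2 potassium channels, had a ratio of 0.710 (means 272 and 193), with W3-HM replicate 1 at 247 and the other 4 between 165 and 207. Brinp1, a neuronal gene tied to the cell cycle exit of progenitors, had a ratio of 0.858. The remaining lower genes of this set were Tfdp2, the partner of E2F transcription factors (ratio 0.795), Shroom2, an actin-binding protein (0.871), Plcxd2, a phospholipase C-like gene (0.854), and Mt2, described with Mt1 further on.

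Of the 12 genes with the smallest p among those higher in W3-HM, 11 separated the groups without overlap and none passed the threshold. These too were picked by p in this comparison, and 0.955% of all genes were higher without overlap. Hrk, a BH3-only promoter of neuronal apoptosis, measured 2397, 2365, 2236, 2406 and 2345 in W3-HT and 2674, 3118, 2948, 2994 and 3268 in W3-HM. The lowest W3-HM mouse was above the highest W3-HT mouse, and the ratio of means was 1.28 (log2 difference 0.35, SE 0.06, limma adjusted p = 0.0849). Nnat, an imprinted gene of the endoplasmic reticulum in developing neurons, measured 2094, 1793, 1900, 1947 and 1484 against 2493, 2523, 2366, 2320 and 2372, a ratio of 1.31 (limma adjusted p = 0.165). For both genes the W3-WT means, 2254 and 1818, were below those of W3-HT.

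Pcdhgc4, a clustered protocadherin gene, had the largest estimate of the 12 (ratio 1.51, log2 difference 0.63, SE 0.14). It measured 3677, 3733, 3895, 3637 and 3796 in W3-HM but spread from 1846 to 3242 in W3-HT, and the W3-WT mean was 3513 ± 794 (SD, n = 5). Its exons overlap those of other gamma-protocadherins that share constant exons, so its share of reads is uncertain. The neuropeptide gene Vip, the marker of a class of disinhibitory interneurons, measured 1276, 1071, 1102, 1165 and 1111 in W3-HT and 1355, 1528, 1491, 1523 and 1343 in W3-HM, a log2 difference of 0.34 (limma adjusted p = 0.165). The others were the ribosomal protein gene Rpl11 (ratio 1.13), the RNase P subunit gene Rpp21 (1.31), the nesfatin precursor gene Nucb2 (1.24), Swap70, an actin-binding exchange factor (1.28), Ssr4, a subunit of the translocon-associated complex (1.17), the GPI-anchored Ly6h (1.16), and A230103L15Rik and 4931428F04Rik (1.41 and 1.18).

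**Figure D2:**
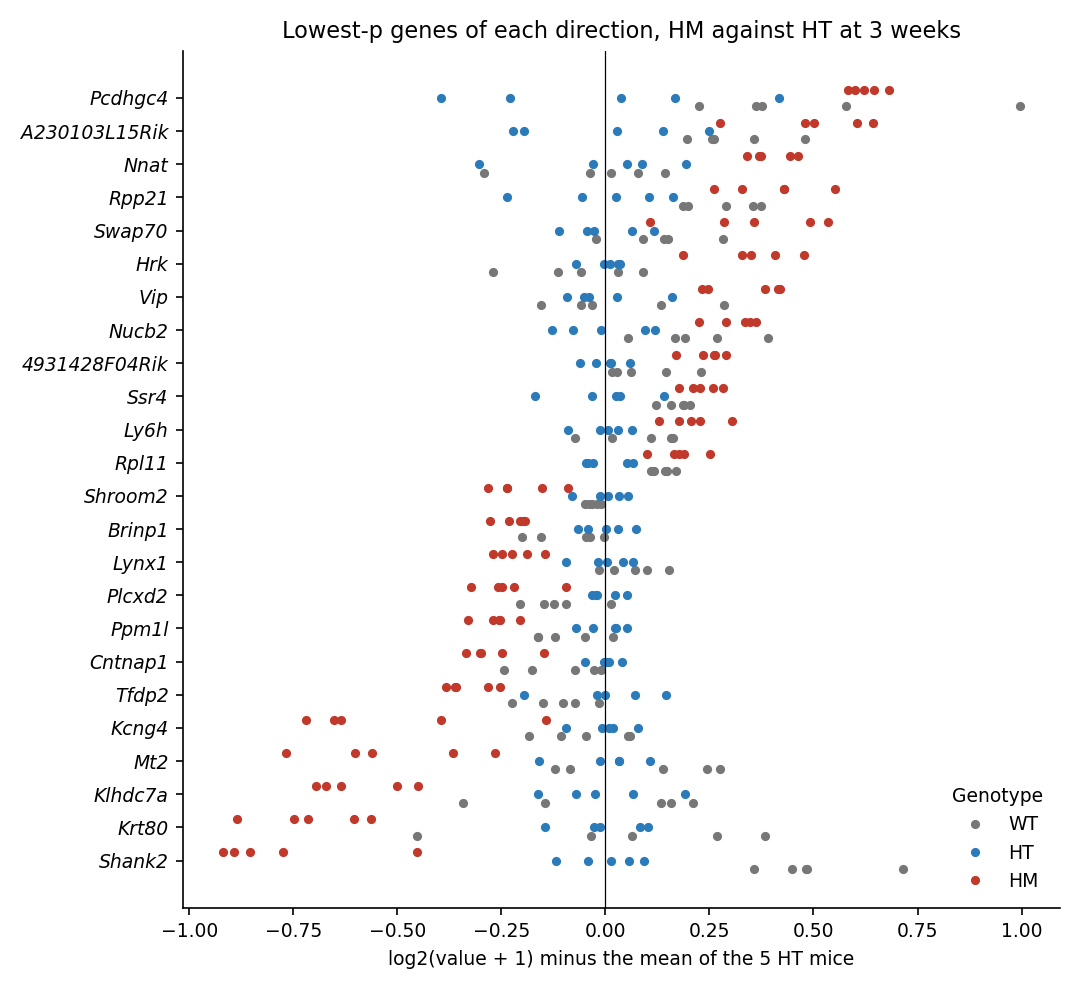
The 12 genes with the smallest p in each direction; each point is 1 mouse, placed at its log2(value + 1) minus the mean of the 5 HT mice, with HM, HT and WT mice in separate rows of points per gene. HM points do not overlap with HT points in 23 of the 24 genes, Swap70 being the exception. The genes were picked by p in this same comparison, so this separation largely follows from the choice. Log2 differences run from -0.78 to 0.63.

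Among the partners of Shank2, no gene passed the threshold. Of 40 PSD scaffold and partner genes, 5 were lower (12.5%) and 0 higher at an unadjusted p under 0.05, where all tested genes gave 5.75% and 4.73%, and the median log2 difference was -0.01. The list does not count the Shank genes. The genes with the smallest p were Kalrn, a guanine nucleotide exchange factor of spines (means 23433 ± 1428 and 20044 ± 1023, log2 difference -0.22), the Ras scaffold gene Cnksr2 (-0.15, no overlap), with Il1rap, a synaptic adhesion partner, at -0.11. Dlgap1, whose protein binds the Shank PDZ domain directly, ranged from 14726 to 15490 in W3-HT and from 13733 to 14895 in W3-HM (log2 difference -0.09, SE 0.03).

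Glutamate and GABA-A receptor genes with an unadjusted p under 0.05 were 1 or 2 per list, and their shares are to be read against 4.73% higher and 5.75% lower over all genes. Of 6 NMDA receptor genes tested 2 were lower (33.3%) and 0 higher. Grin2a, the subunit that gains weight as synapses mature, measured 7969, 9816, 9311, 10144 and 9389 in W3-HT and 7486, 8056, 8024, 8173 and 8622 in W3-HM (log2 difference -0.20, SE 0.07, limma adjusted p = 0.31). The other, the obligatory subunit gene Grin1, gave -0.09 (SE 0.04), with W3-HM replicate 5 at 20592 and the other 4 W3-HM mice between 18089 and 18713. Of 17 AMPA receptor and auxiliary genes, 2 auxiliary subunits were higher (11.8%), Cnih2 (log2 difference 0.17, no overlap) and Shisa9 (0.14). Of 7 metabotropic receptor genes 1 was lower (14.3%), the presynaptic Grm2 (-0.26, SE 0.08), and of 9 kainate and delta receptor genes none reached that level. Of 13 GABA-A receptor genes 11 had an estimate below 0 and 2 were lower at an unadjusted p under 0.05 (15.4%), among them the beta 2 subunit gene Gabrb2 (-0.22).

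Several genes of the axon and of fast firing had lower values. The following 2 lists were drawn up after their leading members had been seen, so their counts describe that choice and are no evidence about the lists. Of 49 voltage-gated potassium and sodium channel genes, 18 were lower (36.7%) and 3 higher (6.12%) at an unadjusted p under 0.05, 7 of the 18 without overlap, and the median log2 difference was -0.11. Over all genes 5.75% were lower, 4.73% higher and 0.955% lower without overlap. Of 16 neurofilament and node of Ranvier genes, 8 were lower and 0 higher, and all 16 estimates were below 0 (median -0.17). The lists share Kcna1 and Kcna2. The median of the first list stayed between -0.13 and -0.10 and that of the second between -0.20 and -0.12 when each of the 15 mice was left out. None of these genes passed the threshold.

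Kcna2, the Kv1.2 subunit found at juxtaparanodes and axon initial segments, measured 9467, 11569, 11481, 10573 and 11235 in W3-HT and 8902, 8646, 8478, 8922 and 8348 in W3-HM. All W3-HM mice were below all W3-HT mice, and the log2 difference was -0.32 (SE 0.07, limma adjusted p = 0.165). Its partner Kcna1 gave -0.32 as well, also without overlap. Scn1a, the sodium channel of fast-spiking interneurons whose loss causes Dravet syndrome, measured 4546, 4967, 5226, 4859 and 4853 against 3919, 4023, 3999, 4007 and 3770 (log2 difference -0.31, SE 0.07, limma adjusted p = 0.169). Kcnc1, a Kv3 channel that allows rapid repolarization, gave -0.17 without overlap, with W3-HM replicate 5 the lowest mouse at 4492.

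The anchor of the axon initial segment, Ank3, gave a log2 difference of -0.25 (SE 0.06), and the neurofilament genes Nefm, Nefh and Nefl gave -0.30, -0.17 and -0.13. Nefm was the 1 neurofilament gene whose groups did not overlap (6047 to 7714 in W3-HM against 8155 to 9395 in W3-HT). The plasma membrane calcium pump gene Atp2b2 gave -0.17, without overlap. For Kcna2, Scn1a, Ank3 and Atp2b2 the W3-WT means (9756, 4401, 13892 and 30111) lay between those of the mutant groups.

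Interneuron markers differed in both directions. Of 35 GABA neuron markers 7 were higher (20%) and 5 lower (14.3%) at an unadjusted p under 0.05, against 4.73% and 5.75% of all genes, and the median log2 difference was 0.05. Among the higher were Vip, Tac2 (tachykinin 2; log2 difference 0.40, no overlap) and Calb2 (calretinin; 0.53), found in VIP and related cells, and Cort (cortistatin; 0.56, no overlap), found in somatostatin cells. The somatostatin gene Sst itself ranged from -0.02 to 0.07 when single mice were left out. A published human set for somatostatin interneurons had 2 higher and 13 lower of 80 (median -0.04). Calb2 leaned on 1 mouse, with 676 in W3-HM replicate 1 and 272 to 371 in the other 4, and its log2 difference was 0.32 to 0.64 when single mice were left out. Among the lower were genes used by parvalbumin cells. Syt2, the calcium sensor for release from these cells, measured 1097, 1153, 1178, 1365 and 1145 in W3-HT and 961, 726, 817, 982 and 747 in W3-HM (log2 difference -0.50, SE 0.11, limma adjusted p = 0.165). Pvalb itself ranged from 547 to 682 and from 418 to 614 (log2 difference -0.20, SE 0.10), with overlap. Gad1, which makes GABA, gave -0.18 (SE 0.07). Its counterpart Gad2, which also makes GABA, ranged from -0.05 to 0.02 when single mice were left out. None of the markers passed the threshold. Published human VIP interneuron sets were not mainly higher. In one 5 were higher and 11 lower of 88 (median -0.01), and in another 6 were higher and 5 lower of 65 (median 0.004). A published human set for calretinin interneurons had 10 higher and 4 lower of 91 (median 0.03).

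A published human cell type set for parvalbumin interneurons had 3 genes higher and 23 lower of 91 tested (median log2 difference -0.08), 25.3% lower against 5.75% of all genes. Other sets had like shares. In sets of the same source it was 24.7% for all GABA neurons, 18.4% for NOS1 interneurons and 21.1% for astrocytes. In sets from single-cell RNA-seq of human cortex it was 24.4% for mature neurons and 29.1% for layer 4 neurons. The parvalbumin set's genes with the smallest p included Cntnap1, Syt2, Kcna2 and Scn1a, which are counted above. Lgi3, a secreted partner of axonal Kv1 channels, gave -0.28 (SE 0.06) without overlap.

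Ribosomal protein genes were higher by small amounts. Of 84 cytosolic ribosomal protein genes 28 were higher (33.3%) and 0 lower at an unadjusted p under 0.05, where all tested genes gave 4.73% higher, and 81 of 84 estimates were above 0. The median log2 difference was 0.10, and 7 genes separated the groups without overlap, where 0.955% of all genes were higher without overlap. None passed the threshold. Rpl11 measured 2578, 2384, 2412, 2392 and 2550 in W3-HT and 2758, 2928, 2804, 2781 and 2638 in W3-HM (log2 difference 0.18, SE 0.04, limma adjusted p = 0.165). Rpl13a, Rpl22 and Rpl41 gave 0.14, 0.17 and 0.26. The exception in size was Rps27, with a log2 difference of -0.75 (SE 0.37): it ranged from 40.3 to 157 in W3-HT and from 31.6 to 115 in W3-HM, and its limma adjusted p was 0.486. Many of these genes have near-identical copies elsewhere in the genome, so the reads given to each are uncertain.

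The W3-WT mice had ribosomal levels like those of W3-HM. The list's median log2 difference was -0.10 for W3-HT against W3-WT and -0.01 for W3-HM against W3-WT, comparisons that share mice with each other and with the one above. Summed over the 85 genes in the table, the level was 216777 to 236591 in W3-WT, 199557 to 218129 in W3-HT, and 210296 to 234327 for W3-HM mice. When each mouse was left out, the median stayed between 0.08 and 0.12, and it was 0.10 after quantile normalization. At 12 weeks the median HM to HT difference of the list was -0.002.

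The 2 lists of nuclear genes for mitochondrial proteins had smaller differences of the same sign, and the mitochondrial genome did not. At an unadjusted p under 0.05, 4.73% of all tested genes were higher. Of 78 mitochondrial ribosomal protein genes 9 were higher (11.5%) and 0 lower (median 0.07), among them Mrps26 (0.21) and Mrps25 (0.23). Of 77 nuclear genes of oxidative phosphorylation 6 were higher (7.79%, near the share of all genes) and 0 lower (median 0.06), among them Atp5b, the catalytic subunit of ATP synthase (0.12, no overlap). Of the 13 genes of the mitochondrial genome 1 was higher (7.69%), mt-Co3 (log2 difference 0.50, SE 0.20), which ranged from 26743 to 44691 in W3-HT and from 40477 to 72608 in W3-HM. The list had 7 estimates above and 6 below 0, with a median of 0.01 that ranged from -0.008 to 0.034 without single mice.

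Myelin genes were lower together, and so were striatal markers. All 30 mature oligodendrocyte markers had an estimate below 0, with a median log2 difference of -0.39, and 21 of 30 were lower at an unadjusted p under 0.05, where all tested genes gave 5.75%. None passed the threshold, and in only 1 of the 30 did the groups not overlap, where 0.955% of all genes were lower without overlap. Mobp, a structural myelin protein, measured 18003, 23721, 24821, 22290 and 20665 in W3-HT and 19630, 11922, 15682, 12348 and 14152 in W3-HM (log2 difference -0.59, SE 0.14, limma adjusted p = 0.201). W3-HM replicate 1 lay within the range of W3-HT and the other 4 lay below it. Mbp, which compacts central myelin, gave -0.40, the tight junction gene Cldn11 -0.43, and the surface proteins Mog and Mag -0.42 and -0.40. In bulk tissue, fewer cells of a type and less RNA per cell cannot be told apart.

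Striatal markers, which mark tissue that lies next to the dissected cortex, were lower as well. All 16 had an estimate below 0, with a median log2 difference of -0.63, and 6 reached an unadjusted p under 0.05, among them Isl1 (-1.91), Drd2 (-1.18), Syndig1l (-1.15) and Foxp1 (-0.18). The summed level of the 16 was 29484, 32022, 41906, 39505 and 19458 in W3-HT, 37688, 22232, 19521, 17779 and 18662 in W3-HM. It was 16247 to 40601 in W3-WT. W3-HM replicate 1 was high and W3-HT replicate 5 low for their groups. The summed mature oligodendrocyte markers were 178725, 218491, 233323, 214652 and 196836 in W3-HT and 205634, 129075, 174290, 127157 and 160180 in W3-HM, again with W3-HM replicate 1 the highest of its group. None of the 16 striatal genes was at 0 in any W3 mouse. The D1 and D2 dopamine receptor genes Drd1 and Drd2 measured 343 to 943 and 175 to 622 in W3-HT, and 344 to 838 and 106 to 595 in W3-HM.

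With the striatal sum of each mouse as a covariate, a model added after seeing these values, the median of the oligodendrocyte list was -0.21, with Mobp at -0.38. In the fit without the covariate, the median of the oligodendrocyte list was -0.48 when W3-HM replicate 1 was left out. With the same covariate the median was -0.08 for the channel genes, -0.13 for the neurofilament and node genes, 0.09 for cytosolic ribosomal proteins and 0.02 for oxidative phosphorylation. Without the covariate, the oligodendrocyte list's median was 0.15 for W3-HT against W3-WT and -0.20 for W3-HM against W3-WT, and that of the striatal list 0.44 and -0.18. A published human set of mature oligodendrocyte genes had 31 lower and 0 higher of 87 tested (median -0.16). The part of the dissection in the myelin difference was not tested beyond these values.

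**Figure D3:**
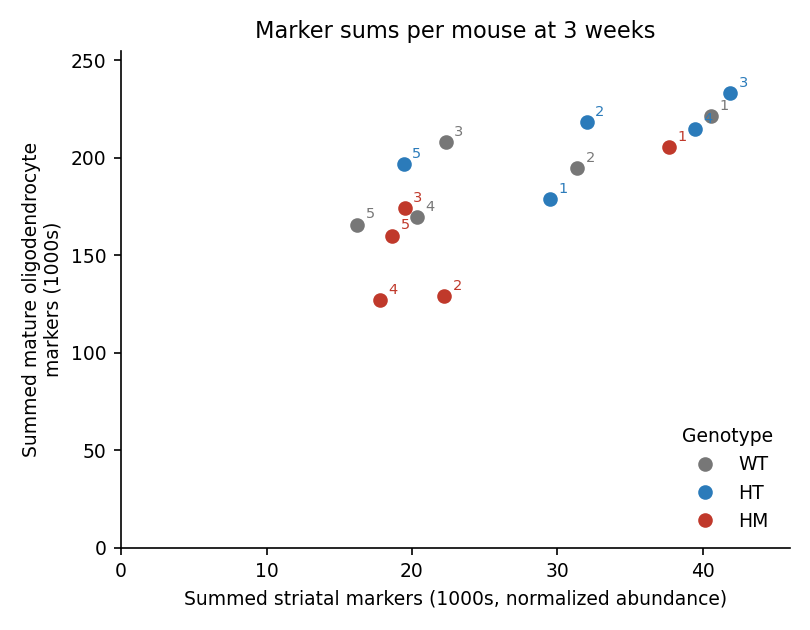
Summed normalized abundance of 30 mature oligodendrocyte markers (vertical) against that of 16 striatal markers (horizontal) for the 15 mice of 3 weeks, with axes scaled in units of 1000; numbers beside the points are replicate numbers. HM replicates 2 to 5 have striatal sums of 17779 to 22232 and oligodendrocyte sums of 127157 to 174290, while HM replicate 1 lies among the HT mice.

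The lists of other cell classes had medians closer to 0, and several had shares above the 5.75% lower or 4.73% higher of all genes. Of 16 oligodendrocyte precursor markers 2 were lower (12.5%), Sox10 and Tnr (log2 differences -0.23 and -0.20; list median -0.10), and a published human set had 26 lower of 148 (17.6%). Of 20 astrocyte markers 2 were lower (10%), Fgfr3 and the connexin gene Gjb6 (-0.19 and -0.24; list median -0.04), and a published human set had 19 lower of 90 (21.1%), with 78.9% of estimates below 0. Of 20 microglia markers 2 were higher (10%), P2ry13 and Fcrls (0.24 and 0.21; list median 0.06). Published microglia sets went the other way, with 11 lower and 3 higher of 88 (median -0.04) and 20 lower and 3 higher of 174 (median -0.01). Of 27 excitatory neuron markers 4 were lower (14.8%) and 0 higher (median -0.04), and the vesicular glutamate transporter gene Slc17a7 of cortical pyramidal cells ranged from 48009 to 51920 in W3-HT and from 45998 to 57205 in W3-HM, with no mouse lacking it. Published human sets of cortical glutamate neurons differed by layer. The layer 6 set had 9 higher and 6 lower of 95 (median 0.04), and that of layers 2 to 4 had 9 higher and 5 lower of 96 (0.02). The layer 5 set had 7 higher and 5 lower of 93 (0.02). The layer 1 set had 0 higher and 5 lower of 94 (0.03), and the layer 4 set 2 higher and 16 lower of 96 (-0.01). Of 20 endothelial and mural markers 2 were lower (10%; median -0.02), of 19 meningeal and fibroblast markers 3 were lower (15.8%; median -0.07), and no choroid plexus, blood or olfactory bulb marker reached an unadjusted p under 0.05. The olfactory bulb list, of tissue in front of the PFC, had a median of 0.30 over 10 genes, and 0.13 without W3-HM replicate 1.

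Metallothionein and glucocorticoid-responsive genes were lower as a group. Of 19 tested genes of this list 18 had an estimate below 0 (median log2 difference -0.25), and 5 were lower and 0 higher at an unadjusted p under 0.05 (26.3% against 5.75% of all genes). None passed the threshold. Mt2, which binds zinc and copper and is induced by metals and glucocorticoids, measured 1394, 1592, 1592, 1542 and 1676 in W3-HT and 1055, 913, 1025, 1207 and 1294 in W3-HM. The groups did not overlap, the log2 difference was -0.51 (SE 0.09, limma adjusted p = 0.0849), and the W3-WT mean of 1667 ± 210 (SD, n = 5) was above both. Its neighbour Mt1 had means of 3951 ± 354 and 3068 ± 398 (log2 difference -0.37, SE 0.08), with W3-HM replicate 4 at 3680 within the W3-HT range.

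Plin4, a lipid droplet coat protein, had the largest difference of the list: 115, 213, 222, 219 and 289 in W3-HT against 63.4, 67.0, 43.1, 104 and 108 in W3-HM (log2 difference -1.46, SE 0.31, limma adjusted p = 0.165). Fkbp5, a chaperone of the glucocorticoid receptor, was 1890 in W3-HM replicate 5, above all W3-HT mice (1461 to 1834), and 1061 to 1301 in the other 4 (log2 difference -0.40, SE 0.14).

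Mt2 and Mt1 are adjacent on chromosome 8, and their promoters are shown because metallothionein genes are induced through metal response elements there. Each run covers 250 bases before and 50 after the RefSeq start on GRCm38.p6, plus strand, at chr8:94172368-94172667 and chr8:94178839-94179138. Capitals mark the core TGCACNC or TGCGCNC on either strand.
Mt2 promoter: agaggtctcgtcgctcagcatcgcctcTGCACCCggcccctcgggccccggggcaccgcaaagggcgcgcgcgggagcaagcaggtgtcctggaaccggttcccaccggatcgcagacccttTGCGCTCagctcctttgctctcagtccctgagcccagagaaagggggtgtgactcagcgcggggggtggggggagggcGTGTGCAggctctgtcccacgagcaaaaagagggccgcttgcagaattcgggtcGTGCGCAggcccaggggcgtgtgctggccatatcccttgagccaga
Mt1 promoter: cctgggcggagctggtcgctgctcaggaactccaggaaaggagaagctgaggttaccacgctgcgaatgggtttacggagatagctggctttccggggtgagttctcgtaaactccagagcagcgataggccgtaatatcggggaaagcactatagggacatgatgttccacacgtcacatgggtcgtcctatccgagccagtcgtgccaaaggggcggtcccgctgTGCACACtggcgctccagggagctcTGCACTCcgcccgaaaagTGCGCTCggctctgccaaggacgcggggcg
The core occurs 4 times in the Mt2 run and 3 times in the Mt1 run. Not all matches lie before the start. The last match of the Mt2 run, and TGCACTC and TGCGCTC in the Mt1 run, lie in the 50 bases after it. Of 32851 promoters of this length, 25.7% hold it at least once, 1.97% at least 3 times and 0.517% at least 4 times.

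Activity-dependent and clock genes differed above the share over all genes (4.73% higher, 5.75% lower), each in under 5 genes, and chromatin genes near it. Of 35 immediate early genes 4 were higher (11.4%) and 0 lower at an unadjusted p under 0.05: Inhba (activin A subunit; log2 difference 0.29, no overlap), Nptx2 (0.24), Bdnf (0.30) and Jund. The list as a whole was not higher, with 16 estimates above 0, 19 below and a median of -0.04. When each of the 15 mice was left out, the log2 difference of Arc ranged from -1.4 to -0.39 and that of Npas4 from -0.51 to -0.14. Fos ranged from -0.46 to 0.12 and Egr1 from -0.4 to 0.04. The summed level of the list was 75596 and 79729 in W3-HT replicates 4 and 5 and 39437 to 44643 in the other 3, and 85627 and 66797 in W3-HM replicates 4 and 5 and 36991 to 42661 in the other 3. The W3-WT mice had the same order, with 69433 and 53775 in replicates 4 and 5 and 35536 to 39953 in the other 3, so these sums were high in replicates 4 and 5 of all 3 genotypes. Of 19 clock genes 3 were lower (15.8%), Clock, Rora and Per3 (-0.13, -0.20 and -0.15; list median -0.10). Of 110 chromatin regulators 8 were higher (7.27%) and 7 lower (6.36%; median -0.02), with Baz2b at -0.23, Chd6 at -0.24, Kmt2e at -0.20 and Cbx3 at 0.14. Smarca1, an ISWI remodeler, gave 0.15 (SE 0.06).

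**Figure D4:**
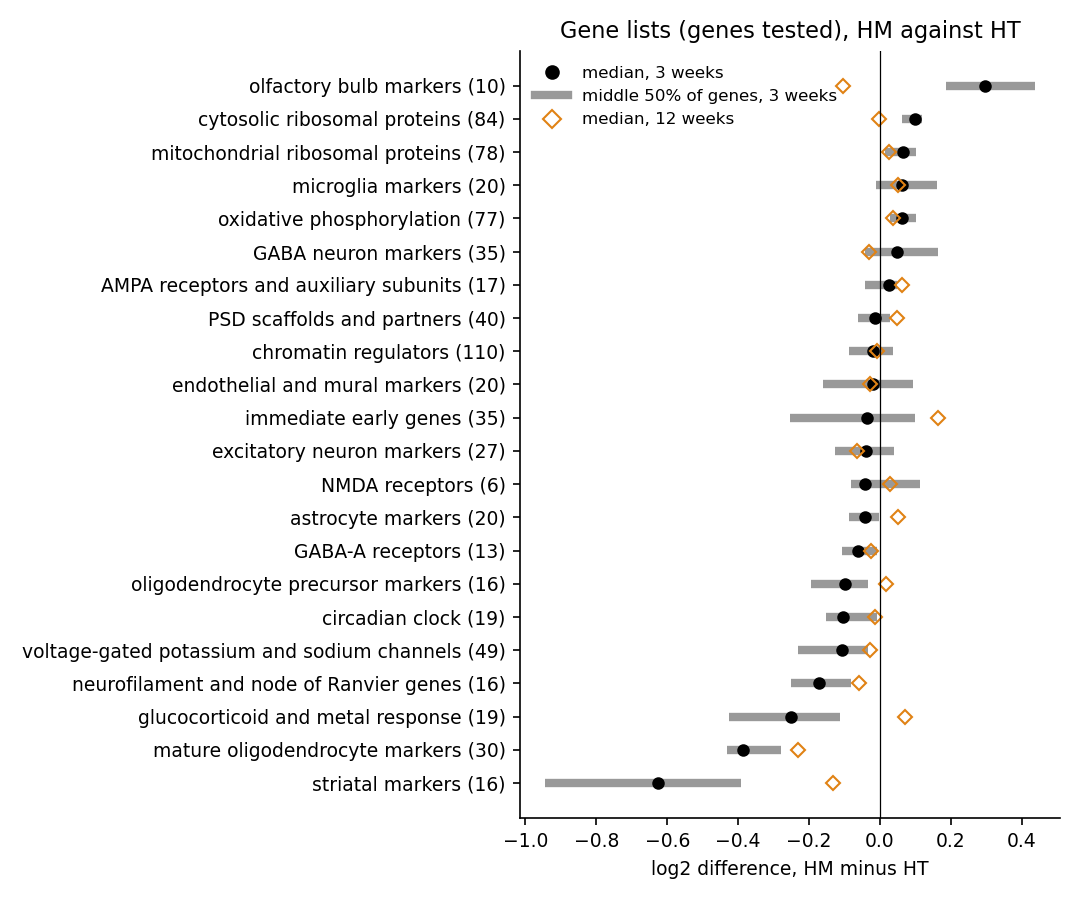
Log2 difference of HM minus HT mice by gene list, with the number of genes tested in brackets: the black point is the median at 3 weeks, the grey bar spans the quartiles, and the open diamond is the median at 12 weeks. Medians at 3 weeks run from -0.63 for striatal markers and -0.39 for mature oligodendrocyte markers to 0.10 for cytosolic ribosomal proteins and 0.30 for olfactory bulb markers.

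Most sets tied to ASD contained more lower than higher genes, while the 2 sets of genes higher in ASD cortex had a share of higher genes near that over all genes. Of 706 tested targets of FMRP, the RNA-binding protein lost in fragile X syndrome, 112 were lower (15.9%) and 16 higher (2.27%), and 460 estimates (65.2%) were below 0, with a median log2 difference of -0.03. Of 877 SFARI genes 100 were lower (11.4%) and 35 higher (3.99%; median -0.02). Of 116 genes reported as lower in ASD cortex 20 were lower (17.2%) and 2 higher (median -0.03), and of 375 genes of a co-expression module lower in ASD cortex 33 were lower (8.80%) and 10 higher (median -0.01). Of 79 genes reported as higher in ASD cortex 4 were higher (5.06%) and 2 lower (2.53%), with 39 estimates above 0, 40 below and a median of -0.001. Of 330 genes of a module higher in ASD cortex 17 were higher (5.15%) and 13 lower (3.94%), with a median of 0.006. These shares stand against 5.75% lower and 4.73% higher over all tested genes. The sets overlap in membership, and Shank2, on which the groups differ by design, is itself a member of some.

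Among their leading members, Camk2g, a subunit of the calcium and calmodulin kinase, gave a log2 difference of -0.19 (SE 0.04), the synaptic adhesion gene Clstn2 -0.25, the AMPA receptor partner gene Syndig1 -0.25, and the nuclear receptor gene Esrrg, which drives mitochondrial genes in interneurons, -0.28, all without overlap. Entpd3, an ecto-ATPase, gave -0.42 (means 187 and 140), and the ceramidase gene Asah2 gave -0.50. Wnt7b, a ligand of dendrite growth, was higher by 0.27 (1008 to 1176 in W3-HT, 1232 to 1445 in W3-HM). For none of these was the limma adjusted p under 0.05.

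In the mice of 12 weeks, 2 of the same 17065 genes passed for W12-HM against W12-HT (0.0117%), and 997 (5.84%) had an unadjusted p under 0.05. They were Shank2 (log2 difference -0.68, SE 0.09, limma adjusted p = 0.00164) and the cell cycle gene Ccnd1, 505437 bases beyond the end of Shank2 (-0.66, SE 0.12, limma adjusted p = 0.0356). At 3 weeks Ccnd1 had means of 981 ± 81.4 in HT and 908 ± 102 in HM (SD, n = 5 each; log2 difference -0.12, limma adjusted p = 0.592), below the W3-WT mean of 1221. It is named here because its W12 value was seen to pass. That call held in 10 of 27 fits without single mice, with an adjusted p of up to 0.366, and not with only HT and HM mice fitted (0.27) or with sample weights (0.054).

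The difference between the ages, tested directly on all 27 mice, passed for 0 of 17065 genes in limma, with 943 (5.53%) at an unadjusted p under 0.05 and a smallest adjusted p of 0.641. That smallest value was that of Mt2, whose log2 difference was -0.51 at 3 weeks and 0.21 at 12 weeks. Klhdc7a (-0.59 and 0.08), Kcng4 (-0.51 and 0.00) and Rpl11 (0.18 and -0.04) also had estimates near 0 or of the other sign at 12 weeks.

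Of the 12 leading lower genes 8 had an estimate of the same sign at 12 weeks, and of the 12 leading higher genes 8 did. In 4 of each 12 the estimate also had an unadjusted p under 0.05 there: Shank2, Ppm1l (-0.22), Krt80 (-0.64) and Shroom2 (-0.13), and Hrk (0.22), Nnat (0.22), Vip (0.36) and Ly6h (0.11). Vip ranged from 1086 to 1346 in the 4 W12-HT mice and from 1422 to 1719 in the 4 W12-HM mice, and Krt80 from 184 to 266 and from 130 to 169. Shank2 differs by design. Over all 17065 genes, the HM to HT differences at the 2 ages had a Pearson correlation of 0.0539 and a Spearman correlation of 0.146. At 12 weeks 5.84% of all genes had an unadjusted p under 0.05 in either direction. The share of all genes with the same sign at both ages was not counted. The mice of the 2 ages are different animals. In 12 genes the groups were separated in the same direction at both ages and in 0 genes in opposite directions, where 326 genes (1.91%) were separated at 3 weeks and 519 (3.04%) at 12 weeks. Besides Shank2, Krt80, Vip, Cntnap1, Camk2g, Asah2 and Kcna1 these were Adam23, H2-M3, Wdr83, Dalrd3 and Ccdc85c, the last 5 named after their values were seen. Mature oligodendrocyte markers had a median of -0.23 at 12 weeks with 29 of 30 estimates below 0, and striatal markers -0.13.

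**Figure D5:**
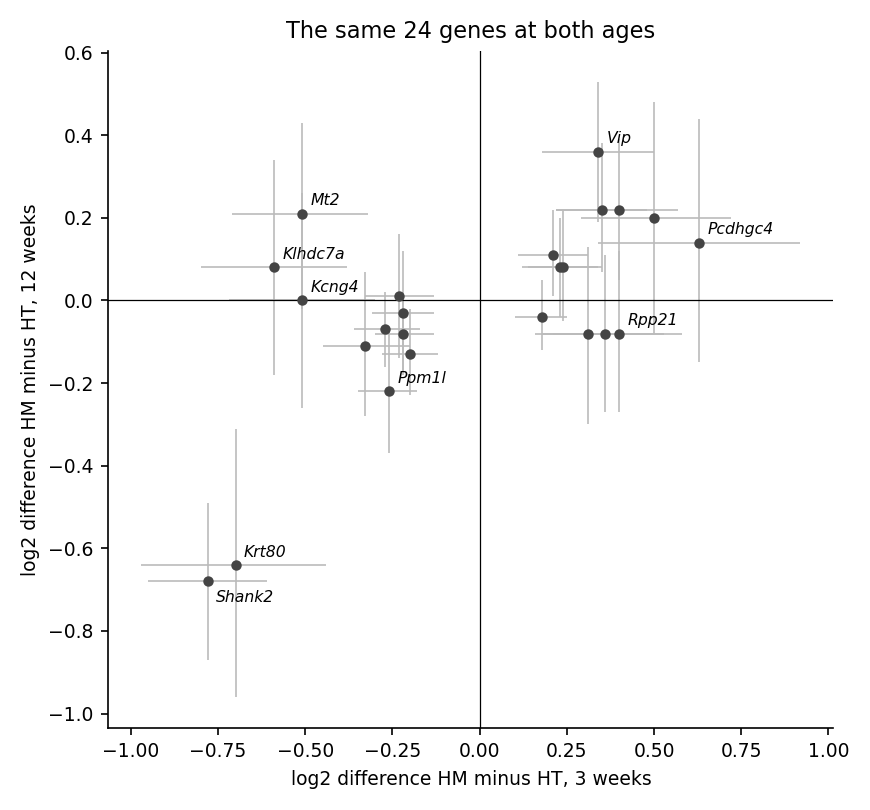
Log2 difference of HM minus HT mice at 3 weeks (horizontal) and at 12 weeks (vertical) for the 24 leading genes of 3 weeks, with 95% intervals from limma as bars. Shank2 (-0.78 and -0.68), Krt80 (-0.70 and -0.64) and Vip (0.34 and 0.36) have like values at both ages, whereas Mt2 (-0.51 and 0.21) and Klhdc7a (-0.59 and 0.08) do not.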

How the data were processed

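RNA was from the PFC of single male mice, sequenced as poly-A libraries. The authors mapped reads to GRCm38 with Salmon 1.1.0 with GC bias correction and deposited 1 signal value per gene and mouse, DESeq2-normalized abundances (DESeq2 1.26.0 and R 3.6.2 per the labels), summing to about the same total in each mouse. The values are not whole counts, so depth is unknown and neither a count test nor counting error applies. Genes averaging 10 or more across the 10 W3-HT and W3-HM mice were fitted as log2(value + 1) with limma 3.58.1 (R 4.3.3; empirical Bayes with trend) on 15 W3 mice, Benjamini-Hochberg adjusted p under 0.05. Folds of low genes are understated on this scale. The 12-week and age contrasts came from 1 fit of 27 mice. Single genes had two-sided exact permutation tests. The code was tested on simulated data.

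Named genes were Shank1 to Shank3, genes marked as leading a list, the 12 genes with the smallest p in each direction, every gene past the threshold, up to 4 members of each list with the smallest p, the 3 tested genes nearest to Shank2 on each side, and genes chosen after their values were seen (Syt2, Calb2, Cort, Nefh, Nefl, Rps27, Ccnd1 and Camk2g). The members and lists were chosen with earlier results of these data known. Some genes that the rule selects are not reported here. Strand use in counting is not given in the sources used here, and reads of near-identical copies are uncertain. Alternatives were another offset, other filters, HT and HM mice only, quantile normalization, sample weights, a replicate block, each mouse left out, and, chosen after seeing the data, a striatal covariate.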

Additional observations from a re-analysis of the deposited data

Results flagged for a closer look

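In 16 of 282 groups of 5 mice tested, the highest or lowest mouse stood further from the rest than Dixon's 95% limit allows, and chance alone gives about 1 in 20 such groups. W3-HM replicate 1 stood high for 4 genes and 1 list. It had 27.2 for Isl1 against 0.81 to 3.96 in the other 4 mice, 747 for Syndig1l against 120 to 291 and 595 for Drd2 against 106 to 202, all striatal markers. Its summed striatal markers were 37688 against 17779 to 22232, and its Calb2 value was 676 against 272 to 371.

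W3-HM replicate 5 stood apart for 4 genes and 1 list. It was high for Shank2 (4838 against 3502 to 3869), Grin1 (20592 against 18089 to 18713), Fkbp5 (1890 against 1061 to 1301) and the summed NMDA receptor genes (60127 against 51886 to 53087). It was low for Kcnc1 (4492 against 5084 to 5162).

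W3-HT replicate 1 was low for Kalrn (20990 against 23585 to 24556), Gabrb2 (4166 against 4560 to 4696) and the summed astrocyte markers (271932 against 301686 to 311588). The other 3 were Fadd in W3-HT replicate 5 (26.9 against 56.2 to 67.3), Asah2 in W3-HT replicate 4 (558 against 345 to 393) and Rps27 in W3-HM replicate 3 (115 against 31.6 to 55.2).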

How the results depend on the processing

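The count of genes past the threshold for W3-HM against W3-HT, 2 as reported, was 1 with no filter on the mean, 1 after quantile normalization, 1 with the striatal covariate (chosen after seeing the data), 9 with only HT and HM mice fitted and 31 with sample weights, and 1 to 23 when single mice were left out. The cause was not tested. Shank2 passed under all 8 alternatives and in all 15 fits without a mouse (log2 difference -0.86 to -0.74). At 12 weeks the count of 2 was 1 with only HT and HM mice fitted, 1 with sample weights, and 1 to 3 without single mice, and for the difference between ages it was 0 throughout. Genes whose W3 groups do not overlap numbered 411 to 979 when a mouse was left out, since fewer mice then have to be separated. With the replicate number as a block, 5 genes passed at 3 weeks (Shank2, Ppm1l, Hrk, Klhdc7a and Plxdc1). At an unadjusted p under 0.05 the block gave 2126 genes in place of 1788. The reported tests did not pair the mice by number, and the labels do not say what a number marks. Their p-values therefore take no account of a pattern shared by number. The correlation of deviations between same-numbered HT and HM mice was 0.0174 to 0.13, over 0.1 in 1 of 5 pairs. Of 10 mice 4 correlated best with their own number. The level of 0.1 cannot decide whether mice of the same number share an origin. A shared pattern by number was still present, since all 5 correlations were above 0 and the immediate early gene sums were high in replicates 4 and 5 of every W3 genotype. The estimate for Shank1, 0.02 as reported, was -0.02 with sample weights and -0.02 with the striatal covariate, and that for Drd1, -0.30 as reported, was 0.33 with the covariate. Without single mice, Shank1 ranged from -0.03 to 0.06, Fadd from -0.14 to 0.20, Nadsyn1 from -0.21 to 0.04 and Ppfia1 from -0.17 to 0.07. Depth could not be read from the normalized values, so no limit from counting can be given.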
